A study of Rattus norvegicus with 2 samples.

Results

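Circular RNAs (circRNAs) of the genes for 18 families of sequence-specific transcription factors were examined in 2 libraries of a rat model of bone cancer pain. The members are the rows of the deposited circRNA table whose gene field names 1 gene with a symbol of the FOX, RUNX, SMAD, ETV, ELK, TEAD, TCF, KLF, E2F, SOX, ATF, NFI, NFAT, CREB, MEF2, ZEB, BACH or STAT families, leaving out STAT3. This gave 174 of 17260 circRNAs, from 57 of 4980 host genes. A host gene is the gene within which a circRNA lies. Symbols alone chose the members, and 6 of the 57 genes share a family's letters without being sequence-specific factors themselves: ATF7IP, FOXRED1, NFATC2IP, RUNX1T1, TCF20 and TCF25. They hold 22 of the 174 circRNAs and are described apart where they matter.

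A circRNA forms when the spliceosome joins the end of a downstream exon back to the start of an upstream one, so that the RNA closes into a loop without free ends. The read across this back-splice junction marks the circle and is absent from linear mRNA. Exons flanked by long introns, often the second exon of a gene, are known to be circularised often. A junction count therefore reports on the amount of the circle, and does not tell transcription of the gene, splicing and stability apart. It measures neither the mRNA nor the protein of the factor, and says nothing of its activity. Several of these families act at the end of signalling pathways. SMADs carry signals from TGF-beta and BMP receptors, NFATs enter the nucleus when calcineurin removes their phosphates, TEADs are the DNA-binding partners of YAP, STATs act below cytokine receptors, and CREB is a target of cAMP and calcium signalling with a long record in spinal pain.

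In the group labelled bone cancer pain, Walker256 cells (a breast carcinoma line of the rat), passed through the ascites of SD rats, were placed alive in the marrow cavity of the tibia. The control group received Walker256 cells that had been boiled for 20 minutes, with the same surgery. Each group had 3 animals, killed 21 days after surgery, and 1 library; whether RNA was pooled is not stated, and no age, sex or genotype is given. The labels disagree on the source of the RNA, giving the tissue as hydrostatic cancer cells, the cell line as Walker256 and the cell type as spinal cord cells of the injected animals. Both libraries were depleted of ribosomal RNA and digested with RNase R, which removes linear RNA. With 1 library per group there was no replicate and no test between conditions. They are called the control and the pain library below. Every ratio compares these 2 libraries, as the pain library's share of junction reads over the control's share, and its exact 95% interval covers counting error only.

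Junction reads numbered 159941 in the control and 151685 in the pain library. The table gives human gene symbols, human identifiers of circBase, a database of circRNAs, and human-style chromosomes, without naming a build. The sources used here do not say how human identifiers came to a rat series, and whether the table was made from these rat samples could not be checked, so every value below holds for the 2 deposited columns and rests on their headings for its group. All 57 member genes have a rat gene of the same name in RefSeq's gene table of the rat (assembly GRCr8), and 5 of the 57 lie on the same chromosome number there. Positions below are as deposited. None of the 5 neuronal markers checked (RBFOX3, SNAP25, SYT1, MAP2 and NEFL), none of 3 astrocyte markers (GFAP, AQP4 and SLC1A3) and none of 4 microglia and macrophage markers (AIF1, CSF1R, ITGAM and PTPRC) had a circRNA listed under the gene alone or beside small RNAs. SYT1 was named in 1 further row that also names another gene, which was not counted. Of 4 oligodendrocyte markers only MBP had one, with 2 control and 3 pain library reads. Of 5 epithelial carcinoma markers only ERBB2 did, with 36 and 35, while EPCAM, KRT8, KRT18 and CDH1 were not listed. Of 6 mesenchymal markers FN1 (24 and 63), COL3A1 (24 and 59) and VIM (5 and 3) did, with 53 control and 125 pain library reads in all. A gene can be expressed without giving a circRNA, so these lists do not settle which cells were sequenced, and the part of a changed mix of cells in any ratio below was not tested. In such bulk RNA, fewer cells of a type and less RNA per cell cannot be told apart.

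As a whole, the transcription factor circRNAs took shares of the libraries that differed by no more than counting error. They had 2009 reads in the control library, which is 1.26% of its reads (exact binomial interval 1.20 to 1.31), and 1977 in the pain library, which is 1.30% (1.25 to 1.36). The ratio was 1.04 (0.97 to 1.10). Without the 6 genes that are not sequence-specific factors, it was 1.01 (0.95 to 1.08), from 1939 and 1862 reads. The reads were concentrated on few circles. The 5 most abundant, 2 of NFATC3, 1 of TEAD1, 1 of FOXK2 and 1 of NFATC1, held 42.8% of the control and 43.7% of the pain library member reads, while 119 of the 174 circRNAs had fewer than 10 reads over both libraries. A listed member had a median of 5 reads in the control and 4.5 in the pain library.

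Calls were made by size alone. A ratio of 2 or more counted as higher and one of 0.5 or less as lower, after adding 0.5 reads to each library, for circRNAs and host genes with 10 or more reads over both. Of the 55 member circRNAs with 10 or more reads, 11 (20.0%) were higher by this rule in the pain library and 5 (9.09%) lower. Over all circRNAs of the table the background was 17.3% higher and 17.0% lower. Of 42 member host genes with 10 or more reads, 7 were higher and 7 lower, 16.7% each, against a background of 13.3% higher and 14.2% lower over all host genes. These shares lie near the background, with exact intervals that include it (6.97 to 31.4% for host genes). Asking also that the ratio's interval exclude 1 left 6 circRNAs higher and 2 lower (10.9% and 3.64%, against a background of 10.7% and 10.2%). For host genes it left 6 higher and 3 lower (14.3% and 7.14%, against 9.21% and 9.44%). The 3 lower (ATF1, ATF2 and STAT2) and CREB1 among the higher are sums of circles each listed in 1 library only. ATF7IP and TCF20, also among the higher, are not sequence-specific factors. The median log2 ratio of the 42 genes was 0.05, and that of all host genes was -0.03. With the libraries scaled by the median circRNA, which lowers log2 ratios by 0.08, the median of the members was -0.03. The median of all host genes falls by the same amount under this scaling, so the distance between the medians is unchanged.

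**Figure D1:**
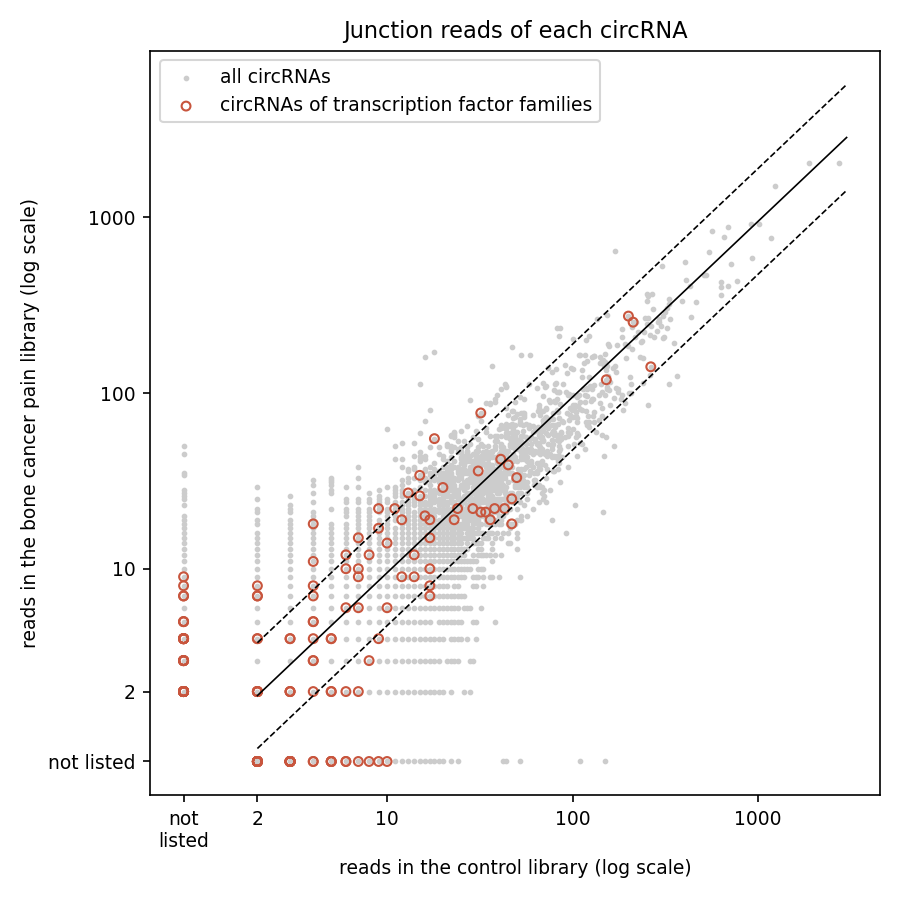
Junction reads of each circRNA in the control library (x axis, log scale) and the pain library (y axis, log scale), with circRNAs absent from a library placed at "not listed". Open circles are the 174 transcription factor circRNAs and grey points all circRNAs, the solid line marks equal shares and the dashed lines a ratio of 2 and 0.5. Of the members with 10 or more reads, 11 were called higher and 5 lower.

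The 7 higher host genes were ATF7IP, CREB1, CREB3L2, FOXRED1, NFIX, TCF4 and TCF20, and 3 of these (ATF7IP, FOXRED1 and TCF20) are not sequence-specific factors. The 7 lower were ATF1, ATF2, CREB5, ETV5, FOXN2, RUNX1 and STAT2. In 5 of the lower genes (ATF1, ATF2, ETV5, FOXN2 and STAT2) and in CREB1 no circRNA was listed in both libraries, so the reads are given below without a ratio. No circle was listed with fewer than 2 reads, so one that is not listed may have had 1.

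Families were then compared in both libraries. Ordered by reads, NFAT came first with 542 control and 704 pain library reads. FOX (349 and 280), TEAD (270 and 147), ZEB (167 and 133), NFI (139 and 116) and SMAD (126 and 136) followed. In the control library FOX was above TEAD by more than counting error, with 0.218% (0.196 to 0.242) and 0.169% (0.149 to 0.190) of the reads, while the intervals of ZEB, NFI and SMAD ran into each other. In the pain library the interval of TEAD, at 0.0969% (0.0819 to 0.114), overlapped those of ZEB, NFI and SMAD, while FOX, at 0.185% (0.164 to 0.208), stood above them. A middle group held BACH (78 and 80), CREB (70 and 105), ATF (69 and 70) and TCF (63 and 102). RUNX (27 and 23), ETV and KLF (24 control reads each, with 14 and 10), STAT (21 and 9), ELK (14 and 19), SOX (13 and 18), MEF2 (7 and 4) and E2F (6 and 7) had 50 reads or fewer over both. Each circle has 1 junction, so these counts carry no term for gene length.

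The interval of the ratio excluded 1 for 6 of the 18 families. NFAT, CREB and TCF were higher in the pain library, at 1.37 (1.22 to 1.53), 1.58 (1.16 to 2.17) and 1.71 (1.24 to 2.38). TEAD, KLF and FOX were lower, at 0.57 (0.47 to 0.70), 0.44 (0.19 to 0.95) and 0.85 (0.72 to 0.99). Among all host genes with 100 or more reads the interval excluded 1 for 40.5%, and it did so for 4 of the 9 members of that depth. Such an interval is thus common for host genes of that depth between these libraries. No background was made for families, which can sum several genes, and KLF had only 24 and 10 reads. With the rows that name small RNAs beside the gene, described below, TCF stood at 1.04 (0.79 to 1.36) and KLF at 0.57 (0.27 to 1.17). With circBase identifiers only, FOX stood at 0.86 (0.73 to 1.01) and TEAD and KLF could not be compared. In 4 of the 6 families the interval included 1 once the most abundant circle was left out. Without it TEAD had 6 reads in each library and CREB stood at 1.01 (0.67 to 1.52), FOX at 0.86 (0.70 to 1.07), and KLF had 7 and 2 reads (0.30, 0.031 to 1.58). NFAT, at 1.33 (1.15 to 1.53), and TCF, at 1.49 (1.02 to 2.21), kept an interval above 1. Without its leading host gene, no family of the 10 with reads left in both libraries had an interval excluding 1.

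**Figure D2:**
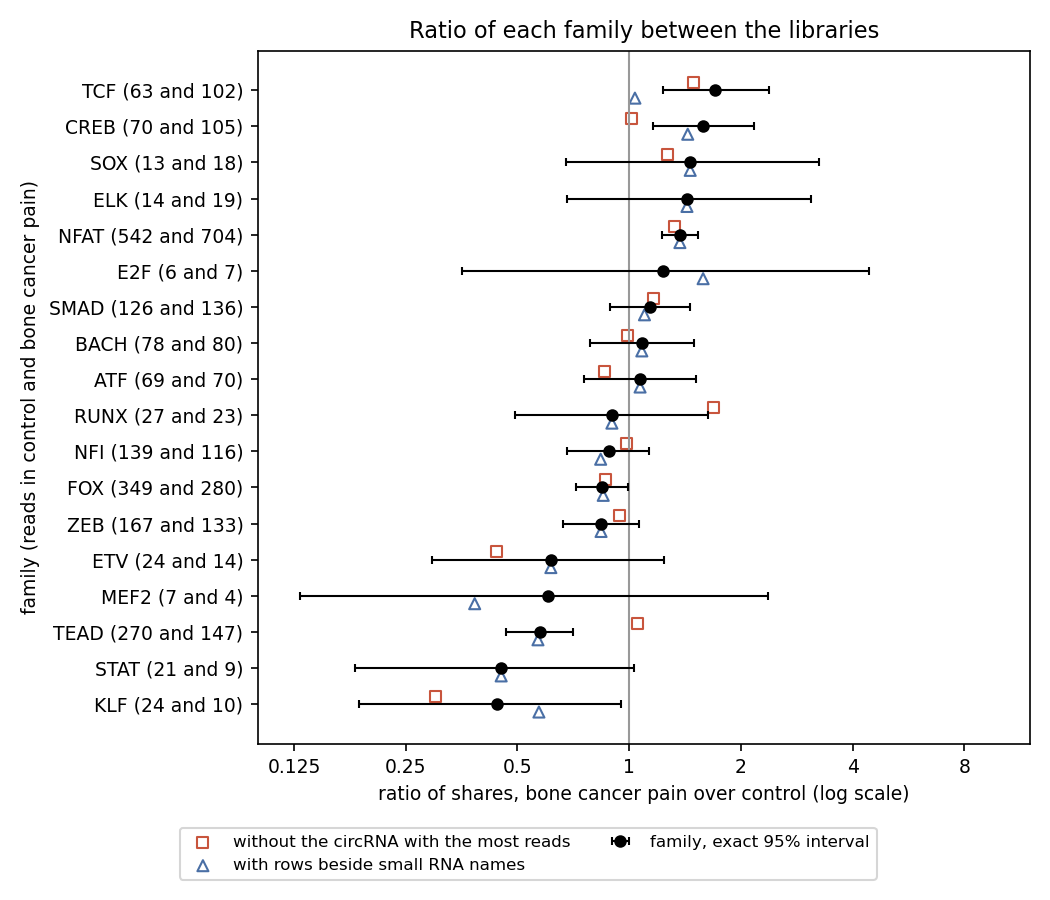
Ratio of each family's share of junction reads, bone cancer pain over control (log scale), with exact 95% intervals as bars and the reads in both libraries beside the name. Open squares leave out the family's most abundant circRNA and open triangles add the rows that name the gene beside small RNAs. TEAD and CREB move to 1.05 and 1.01 without 1 circle, and TCF moves to 1.04 with the added rows.

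NFAT was the leading family because of NFATC3, a calcineurin-regulated factor of T cells, muscle and neurons. Its 9 circRNAs had 427 control and 568 pain library reads, which placed it 25th of all 4980 host genes by reads, with a ratio of 1.40 (1.23 to 1.59). A pair of circles that share the same start made up most of this. The shorter (hsa_circ_0005615, chromosome 16, 68155890 to 68157024) had 212 control and 253 pain library reads (1.26, 1.04 to 1.52). The longer (hsa_circ_0000711, 68155890 to 68160513) had 200 and 274 (1.44, 1.20 to 1.74). Both had ratios above 1 with intervals that overlap. The shorter circle held 49.6% of NFATC3 reads in the control library (44.8 to 54.5) and 44.5% in the other (40.4 to 48.7), so the balance between the pair was not separable from counting error.

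NFATC1, best known for osteoclast formation and lymphocyte activation, had 67 control and 107 pain library reads (1.68, 1.23 to 2.32), from 2 separate regions of the gene. The circle at the lower coordinates (hsa_circ_0048023, chromosome 18, 77170403 to 77171501) had 32 and 77 reads (2.54, 1.66 to 3.96). The other (hsa_circ_0000859, 77208782 to 77211816) had 32 and 21 (0.69, 0.38 to 1.24). Equal in the control library at 47.8% of the gene's reads each (35.4 to 60.3), they stood at 72.0% (62.5 to 80.2) and 19.6% (12.6 to 28.4) in the pain library. NFAT5, the family's factor of the response to high salt, which is not controlled by calcineurin, went the other way, with 40 and 23 reads (0.61, 0.35 to 1.04). Its main circle (hsa_circ_0006845) spans 243 bases and had 36 and 19 reads (0.56, 0.30 to 0.996). NFATC1 and NFATC3 together had 494 and 675 reads (1.44, 1.28 to 1.62). NFATC3 alone held 427 and 568 of these. The sum leaves out NFAT5, which stood below 1, so its distance from NFAT5 follows in part from the grouping.

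TEAD1, a DNA-binding partner of the Hippo pathway coactivators YAP and TAZ, had the second highest reads of all members, with 267 in the control and 143 in the pain library (0.56, 0.46 to 0.69). Nearly all lay on a single junction (chromosome 11, 12785726 to 12785981) with 264 and 141 reads, or 1651 and 930 RPM, the deposited unit (1.78-fold lower, 1.44 to 2.19). That junction spans 255 bases and has no circBase identifier. TEAD4 had a junction of 254 bases, also without an identifier, with 3 and 2 reads. The whole TEAD value therefore rests on the TEAD1 junction, which was not past 2-fold.

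In the forkhead family, FOXK2, a repressor that acts in metabolism and autophagy, had 199 and 143 reads (0.76, 0.61 to 0.94). Its main circle (hsa_circ_0000816, chromosome 17, 80521230 to 80526077) had 152 and 119 (0.83, 0.64 to 1.06). A longer circle from the same start (hsa_circ_0000817, 80521230 to 80529746) had 47 and 18 (0.40, 0.22 to 0.71) and was the only FOX circRNA called lower. FOXP1, which keeps lymphoid and neural progenitors in their state, had 9 circRNAs with 83 and 80 reads (1.02, 0.74 to 1.40). Of these circles, 4 end at the same position. The most abundant (hsa_circ_0008234, chromosome 3, 71090479 to 71102924) had 45 and 39 reads (0.91, 0.58 to 1.44) and the next (hsa_circ_0001320) 23 and 19 (0.87, 0.45 to 1.67). FOXP1 thus stood level between the libraries. FOXJ3 had 34 and 22 reads (0.68, 0.38 to 1.20), or 61 and 28 with a circle listed beside small RNAs. FOXN2 had 9 control and 2 pain library reads on different circles.

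Of the SMADs, those with the most reads did not differ between the libraries beyond counting error. SMAD5, a receptor-regulated SMAD of the BMP arm, had 58 and 53 reads (0.96, 0.65 to 1.42). Its main circle (hsa_circ_0007930, chromosome 5, 135483521 to 135489852) had 41 and 42 (1.08, 0.69 to 1.70). SMAD2 and SMAD3 carry TGF-beta and activin signals. SMAD2 had 44 and 46 reads (1.10, 0.71 to 1.71) on circles that share ends, the most abundant being hsa_circ_0000847 with 20 and 29 (1.53, 0.84 to 2.85). SMAD3 had 14 and 22 (1.66, 0.81 to 3.50), of which hsa_circ_0003973, called higher by size, had 11 and 22 (2.11, 0.98 to 4.82). The SMADs of the TGF-beta arm together stood at 1.24 (0.86 to 1.79) and those of the BMP arm at 1.05 (0.73 to 1.52), intervals that overlap widely. The common partner SMAD4 had 4 reads in each library with no circle in both.

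ZEB1, a zinc finger repressor known for driving the epithelial to mesenchymal transition, had the most circRNAs of any member, 12, of which 11 were listed in both libraries. It had 165 and 133 reads (0.85, 0.67 to 1.07). All 12 share a start or an end with another. The most abundant was hsa_circ_0003793 (chromosome 10, 31661947 to 31676727), with 43 and 22 reads (0.54, 0.31 to 0.92). A shorter circle from the same start (hsa_circ_0000228, to 31676195) had 38 and 22 (0.61, 0.34 to 1.06). In contrast, hsa_circ_0004737 had 16 and 20 (1.32, 0.65 to 2.72) and hsa_circ_0004907 had 9 and 17 (1.99, 0.84 to 5.07). Their ratios ran from 0.54 to 1.99 over the 6 circles with 20 or more reads, but every pair of intervals overlaps. ZEB2 was listed only in the control library, with 2 reads. KLF7, a Krüppel-like factor of neurite growth, had 17 and 10 reads (0.62, 0.25 to 1.43), mostly on a junction of 630 bases without an identifier (17 and 8 reads).

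The basic leucine zipper families ATF, CREB and BACH include factors held in the membrane of the endoplasmic reticulum until stress releases them. Of these, CREB3L2 was higher, with 32 control and 63 pain library reads (2.08, 1.34 to 3.28), or 1.70 with 2 circles listed beside small RNAs. Its circle hsa_circ_0005047 (chromosome 7, 137586100 to 137600758) had 18 and 55 (3.22, 1.86 to 5.83) and made up 56.2% of the gene's control reads (37.7 to 73.6) and 87.3% of its pain library reads (76.5 to 94.4). ATF6, the sensor of misfolded protein, had 30 and 39 reads (1.37, 0.83 to 2.28), of which hsa_circ_0003039 held 15 and 26 (1.83, 0.93 to 3.71), while a longer circle from the same start (hsa_circ_0007360) had 9 and 4 (0.47, 0.11 to 1.68) and was called lower. CREB3L1 had 29 and 24 (0.87, 0.49 to 1.55), nearly all on hsa_circ_0007719. The 3 genes together had 91 and 126 reads (1.46, 1.11 to 1.93), or a ratio of 1.36 (1.03 to 1.78) with the rows beside small RNAs. Of the 91 and 126 reads, hsa_circ_0005047 alone held 18 and 55, and CREB3L1 stood below 1. The sum therefore does not stand for each gene.

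The other members of the same group had few reads, and CREB1, ATF1 and ATF2 had no circle listed in both libraries. CREB1, the cAMP-responsive factor, had 3 circles ending at 1 position, with 14 reads in the pain library, against none listed in the control. ATF1, its close relative, had 13 control reads on 3 circles and none listed in the pain library. ATF2, a target of stress kinases, had 17 control reads on 5 circles and 5 pain library reads on another. CREB5 had 9 and 4 (0.47, 0.11 to 1.68). No CREB1, ATF1 or ATF2 circle had more than 8 reads, so these contrasts rest on circles near the lowest listed value.

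BACH1, a repressor of the genes that NRF2 activates, had 78 and 80 reads (1.08, 0.78 to 1.497), a level sum over circles with ratios on both sides of 1. Of the circles given here, only hsa_circ_0061395 and hsa_circ_0001180 had intervals that do not overlap. The circle of 293 bases (hsa_circ_0001180, chromosome 21, 30693542 to 30693835) had 34 and 21 (0.65, 0.36 to 1.15). A longer one from the same start (hsa_circ_0001181, 30693542 to 30702014) had 31 and 36 (1.22, 0.74 to 2.05). Another (hsa_circ_0061395, 30698380 to 30702014), which shares the end of the longer one, had 4 and 18 (4.74, 1.56 to 19.3), the highest ratio of any member circRNA with 20 or more reads. It took 5.13% of BACH1 reads in the control (1.41 to 12.6) and 22.5% in the pain library (13.9 to 33.2).

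The nuclear factor I genes, which act in glial and lung development, had ratios on both sides of 1. NFIX had 15 and 36 reads (2.53, 1.35 to 4.98) and its main circle (hsa_circ_0005660, chromosome 19, 13135835 to 13136366) 13 and 27 (2.19, 1.09 to 4.62). NFIB had 64 and 41 reads (0.68, 0.44 to 1.02), with 50 and 33 on hsa_circ_0086376. NFIC had 57 and 39 (0.72, 0.47 to 1.10), with 47 and 25 on hsa_circ_0006392 (0.56, 0.33 to 0.93). The other NFIC circle (hsa_circ_0048466) had 10 and 14 reads (1.48, 0.61 to 3.71), and the intervals of NFIB and NFIC each include 1. NFIA, NFIB and NFIC together stood at 0.68 (0.51 to 0.91). That sum leaves out NFIX, the gene with the highest ratio, so its distance from NFIX follows in part from the grouping. The family ratio of 0.88 averages over all these genes.

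Among the smaller families, RUNX1, a master factor of blood formation, had 17 and 7 reads on a single circle (hsa_circ_0002360; 0.43, 0.15 to 1.10). The ETS factors ELK4 (12 and 19; 1.67, 0.77 to 3.77) and ETV6 (14 and 11; 0.83, 0.34 to 1.96) had intervals that include 1. ETV5 was the only member with a circle of 10 or more reads that was listed in 1 library, hsa_circ_0005286 with 10 control reads. Over all circRNAs of that depth, 2.83% were listed only in the control library and 2.81% only in the pain library. SOX13 had 13 and 18 reads (1.46, 0.68 to 3.24). STAT2, which carries interferon signals, had 11 control reads on 2 circles and none listed in the pain library, and STAT5B had 7 and 9.

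TCF symbols do not name 1 family of proteins. TCF4 and TCF12 are basic helix-loop-helix E proteins, while TCF20 is a co-regulator and TCF25 acts in ribosome quality control. TCF4 had 21 and 45 reads (2.26, 1.32 to 3.99), of which hsa_circ_0004223 (chromosome 18, 53017590 to 53018234) held 15 and 34 (2.39, 1.27 to 4.72). TCF20 had 9 and 24 (2.81, 1.26 to 6.87), and TCF25 27 and 30 (1.17, 0.67 to 2.05). The 6 genes of all families that are not sequence-specific factors had 70 and 115 reads in all (1.73, 1.28 to 2.37). They are joined only by the letters of their symbols, and no background was made for such a sum. Among these genes ATF7IP, a partner of a histone methyltransferase, had 9 and 24 (2.81, 1.26 to 6.87). FOXRED1, a mitochondrial protein, had 7 and 15 (2.26, 0.87 to 6.55), and the co-repressor RUNX1T1 10 and 16 (1.69, 0.72 to 4.16). NFATC2IP stood below 1, with 8 and 6 (0.79, 0.23 to 2.60).

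**Figure D3:**
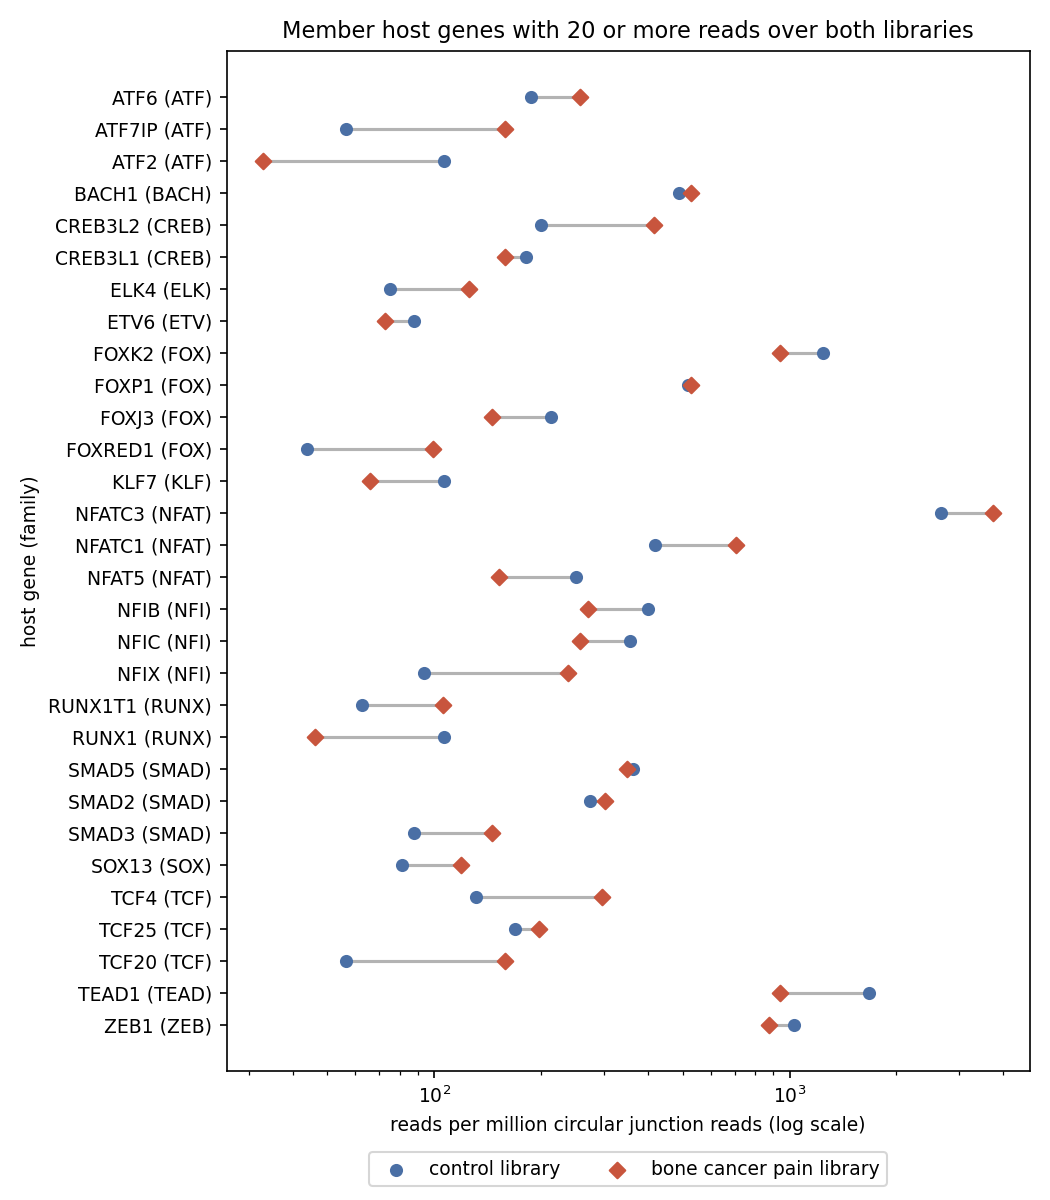
RPM, the deposited unit (log scale), of the 30 member host genes with 20 or more reads over both libraries, ordered by family, with circles for the control and diamonds for the pain library. Each point is 1 library. NFATC3 leads in both, TEAD1 lies higher in the control, and CREB3L2, NFIX and TCF4 lie higher in the pain library.

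Some circles of these genes lie outside the rule because the gene field also lists small RNA names such as Y_RNA or snoU13. There were 21 such rows with 1 family gene each, and the values below were added after the data had been seen. Several genes had other values with them. TCF12 had 6 and 3 reads under the rule and 58 and 14 with them (0.25, 0.13 to 0.46), because its main circle (hsa_circ_0004889, chromosome 15, 57383987 to 57387361) had 52 control and 9 pain library reads (0.18, 0.079 to 0.37). With it the TCF ratio was 1.04 (0.79 to 1.36), and that of TCF4 with TCF12 was 0.79 (0.55 to 1.12) in place of 1.87 (1.15 to 3.12). FOXJ3 gained a circle with 27 and 6 reads (0.23, 0.079 to 0.58) and stood at 0.48 (0.30 to 0.77). It shares its start (chromosome 1, 42730786) with the main FOXJ3 circle (hsa_circ_0006848), which had 24 and 22 reads, a ratio of 0.97 with an interval that includes 1. FOXO1, a forkhead factor that AKT keeps out of the nucleus, went from 3 and 4 reads to 10 and 31 (3.27, 1.56 to 7.47), through circles that include hsa_circ_0000476 with 2 and 11. The KLF ratio became 0.57 (0.27 to 1.17), an interval that includes 1. CREB3L2 went to 39 and 63 reads (1.70, 1.12 to 2.61), which is under 2-fold. FOXP1 (111 and 102 reads; 0.97, 0.73 to 1.28) and SMAD2 (56 and 57; 1.07, 0.73 to 1.58) stayed level.

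**Figure D4:**
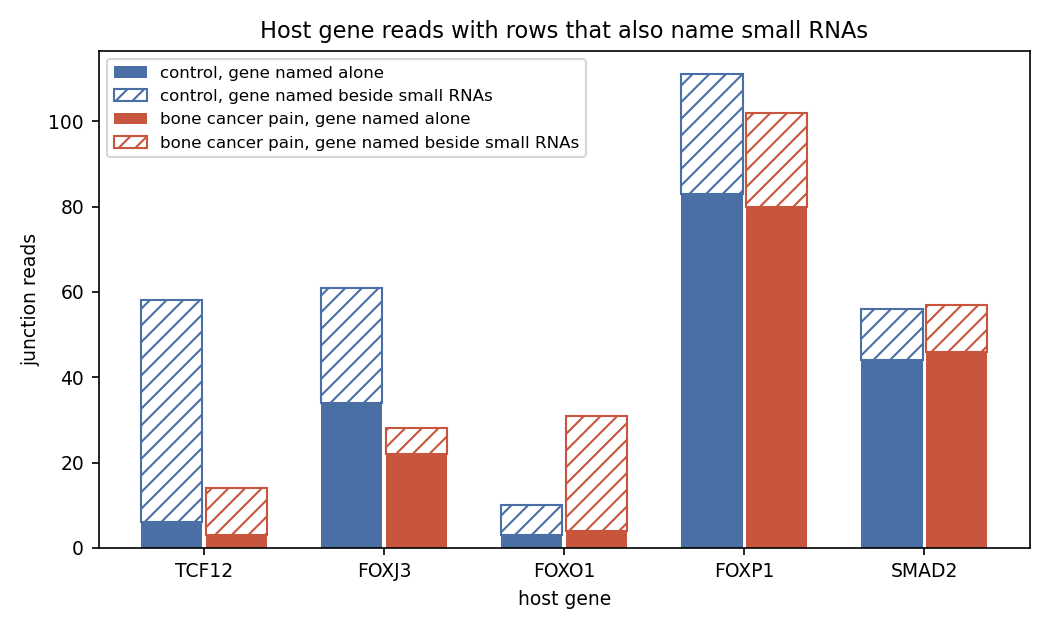
Junction reads (y axis, from 0) of 5 host genes in the control and pain libraries, with filled bars for rows that name the gene alone and hatched bars for rows that name it beside small RNAs. Most TCF12 and FOXO1 reads are in the hatched part, in opposite directions: 58 and 14 in all for TCF12, and 10 and 31 for FOXO1.

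Circles of the same gene were compared wherever at least 2 had 20 or more reads and were listed in both libraries. This gave 25 pairs in 9 genes. The intervals did not overlap in 2 of the pairs, 1 in NFATC1 and 1 in BACH1, both given above, and 15 of the pairs were of ZEB1. Over all host genes the background was 12.2% of such pairs and 20.9% of the genes with any, and among the members it was 2 of 25 pairs and 22.2% of the 9 genes. The members thus lie near the background. For the other 23 pairs the intervals overlap, which does not show that the circles were alike.

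**Figure D5:**
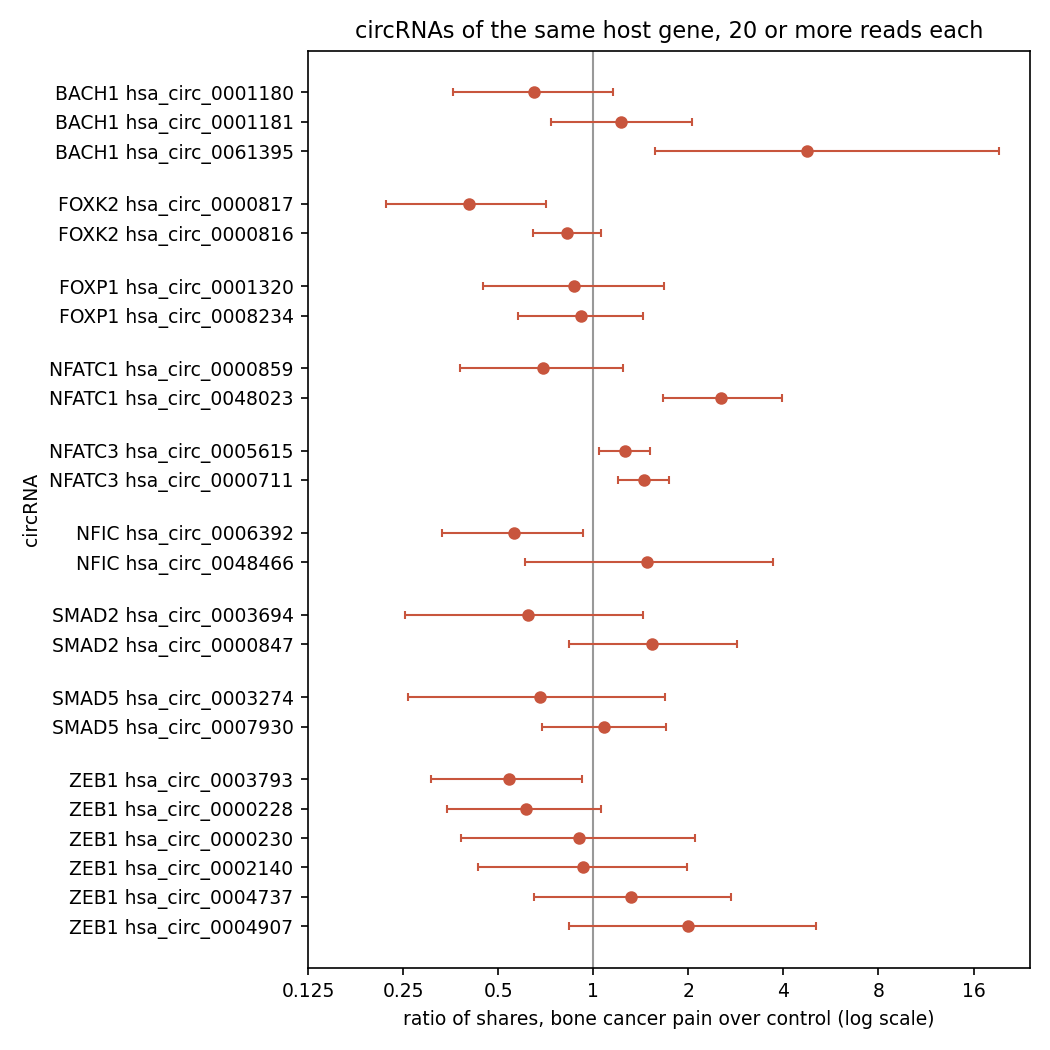
Ratio of bone cancer pain over control (log scale) for circRNAs with 20 or more reads in the 9 member host genes that have several such circRNAs, with exact 95% intervals as bars. The 2 NFATC1 circles (0.69 and 2.54) and the outer 2 of BACH1 (0.65 and 4.74) do not overlap.

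Both libraries listed 81 of the 174 circRNAs (46.6%, 39.0 to 54.3), against 41.9% of all circRNAs. The 48 members listed only in the control and the 45 listed only in the pain library had a median of 3 reads each, as did all such circRNAs. A circBase identifier was given for 114 (65.5%, 57.9 to 72.5) against 54.0% of all. Reads on members with an identifier made up 80.1% of member reads in the control (78.3 to 81.9) and 87.1% in the pain library (85.5 to 88.5), while over all circRNAs they made up 82.4% and 79.9%. The TEAD1 junction, which has none, held 264 control and 141 pain library reads. The median distance between the ends was 6953 bases, against 5764 over all circRNAs, and ran from 185 bases in FOXK1 to 151695 in NFIB. Of the 39 member genes with several circRNAs, 32 had circles that share a start or an end, and 125 of their 156 circles did so. Shared ends were not counted over all host genes, so these counts have no background.

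Some short circles of related genes had nearly equal spans. Of the members, 27 circles of 24 genes spanned under 700 bases. Among pairs from different genes, the spans were within 10 bases of each other in 4 of 18 pairs of the same family and in 9 of 330 pairs of different families, a comparison chosen after the spans had been seen and made with no test. The 4 pairs were NFIC and NFIX (531 bases each), TEAD1 and TEAD4 (255 and 254), SMAD5 and SMAD1 (571 and 575) and FOXN2 and FOXN3 (550 and 556). Exon annotation was not used here, and paralogues with similar exons can share reads, so the split of reads within such a pair is uncertain. The 531-base circles had 10 and 14 reads in NFIC (hsa_circ_0048466) and 13 and 27 in NFIX, while the larger NFIC circle was at 0.56.

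The partners of these factors were taken from a list of 75 co-factors, receptors and kinases, of which 39 had 10 or more reads as host genes. Of these, 5 were at least 2-fold higher and 5 at least 2-fold lower (12.8% each), near the background of 13.3% and 14.2%. Their median log2 ratio was -0.18. Among those with 20 or more reads, SKI (7 and 18; 2.71, 1.08 to 7.68) and SKIL (24 and 53; 2.33, 1.41 to 3.94), related proteins that bind SMADs and block their activity, were highest with the SUMO ligase PIAS2 (8 and 18; 2.37, 0.98 to 6.31). The activin receptor ACVR2A (45 and 16; 0.37, 0.20 to 0.68), STK3, a Hippo pathway kinase (297 and 111; 0.39, 0.31 to 0.49), and TFDP2, the dimer partner of E2F factors (70 and 31; 0.47, 0.30 to 0.72), were lowest.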

How the data were processed

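The deposited values carry the heading TPM, per the file headers, and were read here as RPM, that is reads scaled to the junction reads of the library. All values above a placeholder of 0.001 are whole multiples of 1 step (6.25 RPM in the control, 6.59 in the other) to within 0.001 reads. Dividing gave reads. CASAVA 1.8, BWA and rn6 appear in the submitters' processing notes with no role. The circRNA caller is not given in the sources used here.

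Ratios have exact conditional binomial (Clopper-Pearson) 95% intervals, and shares exact binomial ones. Both cover counting error only. They treat reads as independent, and reads are not independent molecules, so they can be too narrow even for counting error. The rule for members uses symbols alone, but the rule, the lists and the groups were chosen with earlier results of these data known. Named were host genes and circRNAs with 20 or more reads, the leading circRNA of a gene, circles listed in 1 library with 10 or more reads, genes in counts of 5 or fewer, and the 3 highest and 3 lowest partners. CREB5, STAT5B, SMAD4, ZEB2, TEAD4, FOXN3, SMAD1 and NFATC2IP were named after their values were seen. The ATF6 circle hsa_circ_0007360, the FOXO1 circle hsa_circ_0000476 and circles under the other observations were named outside these limits. Host sums and their background used rows naming 1 gene. The alternatives were median of ratios, a trimmed mean of ratios (TMM), another minimum (5, 20 or none), 2 added reads, a 1.5-fold limit, an interval that leaves out 1, circBase identifiers only, and members left out or added. The scripts were tested on simulated data. The work used scipy 1.17.1 and numpy 2.4.6 for the intervals, pandas 2.3.3, matplotlib 3.10.9 and Python 3.11.15. CircRNAs of chromosome Y, XIST and TSIX were left out, since the identifiers are human; library totals include them.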

Additional observations from a re-analysis of the deposited data

How the results depend on the processing

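The counts of calls depend on the read minimum and on the size asked for. A background was made only for the main rule and for the interval excluding 1. The other counts below therefore have no background share and are not results about the members. Member circRNAs higher and lower, 11 and 5 of 55 as reported, were 20 and 18 of 92 with a minimum of 5 reads. With no minimum they were 58 and 56 of 174, where 2 reads in 1 library alone already make a call. They were 19 and 14 of 55 at a ratio of 1.5, and 6 and 2 of 55 with an interval excluding 1. The lower count was 2 of 41 with a minimum of 20 reads and 3 of 55 with 2 reads added. The higher count was 7 of 50 without the genes that are not sequence-specific factors. Member host genes, 7 and 7 of 42, were 12 and 11 of 42 at a ratio of 1.5. Their lower count was 2 of 30 with a minimum of 20 reads and 13 of 57 with none. It was 3 of 42 with an interval excluding 1 and 3 of 35 with circBase identifiers only. Their higher count was 4 of 36 without the genes that are not sequence-specific factors. Partner genes, 5 and 5 of 39, were 15 and 9 of 54 with no minimum and 9 and 12 of 39 at a ratio of 1.5. The higher count of partners was 8 of 45 with a minimum of 5 reads and 2 of 39 with an interval excluding 1. Their lower count was 3 of 33 with a minimum of 20 reads. Family ratios left their main interval as follows. RUNX went to 1.69 without its leading circRNA and to 0.43 without RUNX1T1, which is both its leading host gene and no sequence-specific factor. TEAD went to 1.05 without its leading circRNA and to 1.41 without TEAD1, CREB to 1.01 without its leading circRNA, and TCF to 1.04 with the rows beside small RNAs. These changes follow from the reads removed or added. Under median of ratios scaling CREB3L2 was under 2-fold (1.97), the member counts were 9 and 6 circRNAs and 6 and 7 host genes, and the STAT interval came to exclude 1. The other 135 values of these results and all 196 of single genes and circles stayed within their interval or within 1.5 times. For single circles this was fixed in advance. Their only alternatives were median of ratios and TMM, which lower every log2 ratio by 0.08 and 0.01. TCF12 and FOXO1, with fewer than 20 reads under the rule, are not among the single genes. With the rows beside small RNAs they stood at 0.25 and 3.27. A family ratio without a host gene or circRNA could not be given where no reads were left in 1 library. The rows beside small RNAs were added as an alternative after seeing the data. No paired analysis was possible because each group had 1 library and the labels give no replicate numbers. Circles with under 10 reads, 119 of 174, are at the limit of this depth.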

Other observations

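Some junctions of the same gene differed by only a few bases at 1 end, and their reads are values without a comparison. In TCF4, a circle ending at 53018231 (hsa_circ_0047733) had 7 pain library reads and was not listed in the control, 3 bases from hsa_circ_0004223 with 15 control and 34 pain library reads. In ZEB1, the starts 31644073 and 31644076, also 3 bases apart, each gave a circle to the same pair of ends. To the end at 31676727 the first start had 4 and 11 reads (hsa_circ_0007045) and the other 5 and 2 (hsa_circ_0002765), and to the end at 31676195 they had 8 and 3 (hsa_circ_0000227) and none and 3 (hsa_circ_0003519). In SMAD5, a start 4 bases from that of the main circle had 3 control reads and was not listed in the pain library.

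A further 3 rows named a family gene beside another gene. Those of PINX1 with SOX7 had 3 and 3 reads (hsa_circ_0083327) and none and 2. That of ATF7 with a clone-named gene (hsa_circ_0026673) had 5 control reads and was not listed in the pain library.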
